A study of Mus musculus with 20 samples.

Results

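The transcripts described here encode the IL-4 and IL-13 receptor chains and the kinases and transcription factor downstream of them: Il4ra, Il2rg, Il13ra1, Il13ra2, Jak1, Jak3, Tyk2 and Stat6. They were taken by name from the deposited expression table, and all 8 were found among its 16669 genes and passed the filter that left 16461 genes for testing. Bulk RNA-seq was done on mouse ear pinnae in 4 groups of 5 samples, 20 libraries in all. The right pinna received an intradermal injection of 10 µl of IL-4, IL-13 or IL-31, each at 0.1 µg/µl in PBS, and the control pinnae received PBS. Total RNA was sequenced from the injected tissue. Neither the strain, sex and age of the mice, nor the harvest time after injection, nor the animal behind each sample is given in the sources used here, and p-values therefore cover only the spread among the deposited samples, which may be technical. A pinna is a mixture of tissues, and fewer cells of a type cannot be told apart from less RNA per cell.

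IL-4 first binds the IL-4 receptor alpha chain (Il4ra), and the complex is completed either by the common gamma chain (Il2rg), giving the type I receptor, or by IL-13 receptor alpha 1 (Il13ra1), giving the type II receptor. IL-13 uses the type II receptor and also binds IL-13 receptor alpha 2 (Il13ra2), a high-affinity chain with a short cytoplasmic tail that is known mainly as a decoy. JAK1 sits on the alpha chain, JAK3 on the common gamma chain and TYK2 on IL-13 receptor alpha 1, and the activated complex phosphorylates STAT6, which enters the nucleus and switches on type 2 response genes. The type I receptor is best known from leukocytes, whereas keratinocytes and fibroblasts mainly carry the type II receptor. IL-31 signals through a separate receptor made of Il31ra and Osmr, which also uses JAK1.

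Of the 8 transcripts, 1 differed from PBS, and it was the same one in each comparison. Jak3 was lower in the pinnae of all 3 cytokine groups by limma with Benjamini-Hochberg adjustment over all 16461 tested genes. The 3 comparisons share the PBS libraries and are not independent of each other. The background was 17.8% of all tested genes called in either direction in IL-4 against PBS, 19.7% in IL-13 against PBS and 6.38% in IL-31 against PBS. For calls in the lower direction it was 9.63%, 9.8% and 1.2%, so a count of 1 in 8 is near the background in IL-4 and IL-13 pinnae. The median log2 fold change of the 8 was -0.30 in IL-4, -0.15 in IL-13 and -0.22 in IL-31, beside -0.02, -0.03 and -0.04 over all tested genes. No member was called higher in any cytokine group.

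Libraries held an estimated 6.1 to 23.73 M reads (M, mega), and 3 reads corresponded to 0.126 to 0.491 CPM. Keratinocyte, fibroblast, cartilage, muscle, endothelial and leukocyte markers were all detected in the pinna libraries. PBS libraries 1, 2 and 3 stood apart from every other library in the keratinocyte marker score, the mean over 13 markers of log2 CPM centred per gene. That score was 0.04 and 0.05 in the other PBS libraries and -0.15 to 0.71 in the 15 cytokine libraries, whereas it was -0.81, -1.08 and -1.42 in PBS libraries 1, 2 and 3. With PBS libraries 1, 2 and 3 left out, limma called 1200 genes in IL-4, 385 in IL-13 and 0 in IL-31, so no call named below for IL-31 held in that fit. For genes whose fold change is given below, that fit's fold change or the loss of the call in it is given as well. Counts over marker lists and correlations are not given for that fit. All 18 skeletal muscle markers were called lower in IL-4 and IL-13 pinnae, and 0 of 18 in IL-31 pinnae. Of all called genes, 46.1% were higher in IL-4, 50.4% in IL-13 and 81.1% in IL-31, and quantile normalization gave 59.5%, 61.4% and 82.7%.

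Levels were compared between the 8 genes only after division by exon length, on the scale of log2 CPM per kb of exon. Il13ra1 (mean 4.92), Stat6 (4.63) and Jak1 (4.53) were the most abundant, followed by Tyk2 (3.03), Il4ra (2.28), Il2rg (1.32), Jak3 (0.66) and Il13ra2 (-0.92). The steps from Jak1 to Tyk2 and from Jak3 to Il13ra2 held in 20 of 20 libraries. Stat6 exceeded Jak1 in 13 of 20 libraries, by 0.10 ± 0.21 on the log2 scale (mean ± SD), so the order of those neighbours was within their spread. Il13ra1 exceeded Stat6 in 16 libraries, Tyk2 exceeded Il4ra in 17, Il2rg exceeded Jak3 in 17, and Il4ra exceeded Il2rg in 19. The type II chain Il13ra1 was therefore recovered at a higher level per length than the type I chain Il2rg in every group, as was Jak1 relative to Jak3.

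**Figure D1:**
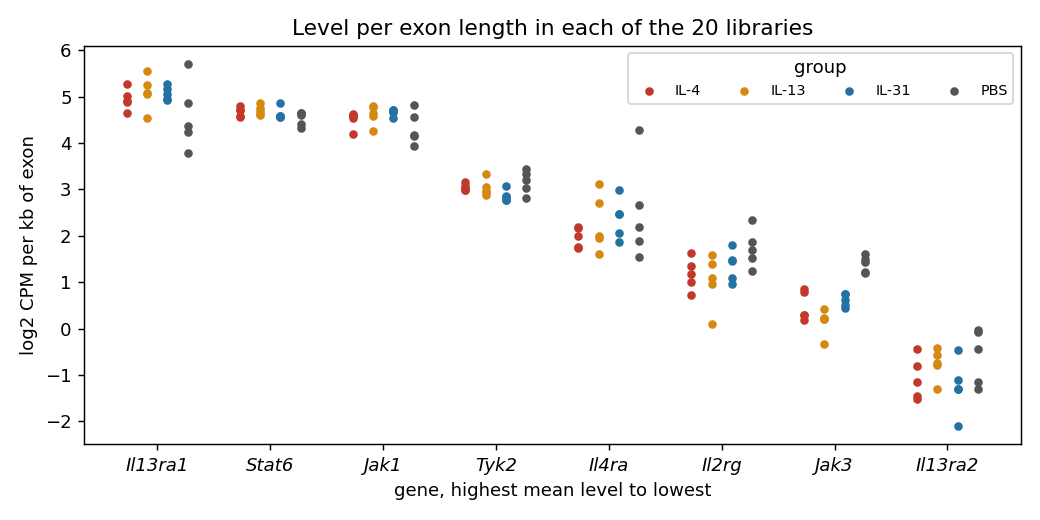
Level of the 8 transcripts in log2 CPM per kb of exon, with 1 point per library and the groups in the order IL-4, IL-13, IL-31 and PBS within each gene. Il13ra1, Stat6 and Jak1 form a top tier with means of 4.92, 4.63 and 4.53, and Jak3 and Il13ra2 lie lowest at 0.66 and -0.92.

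Jak3, on chromosome 8 (GRCm38 chr8:71676296-71690575, plus strand), encodes the kinase partner of the common gamma chain and is best known from lymphocytes. Its level was 3.20, 2.60, 3.28, 2.72 and 2.71 log2 CPM in IL-4 libraries 1 to 5, and 3.62, 3.85, 3.92, 3.65 and 4.02 log2 CPM in PBS libraries 1 to 5. The IL-13 libraries had 2.62, 2.85, 2.09, 2.63 and 2.65 log2 CPM. The IL-31 libraries had 3.17, 2.87, 2.93, 3.16 and 3.03 log2 CPM. Every one of the 15 cytokine libraries lay below every PBS library, and the IL-31 libraries were the most tightly grouped (SD 0.13). Groups did not overlap, with the cytokine lower, in 5.89% of all tested genes for IL-4, 5.01% for IL-13 and 1.43% for IL-31. All 15 cytokine libraries lay below all 5 PBS libraries in 79 genes, 0.48% of those tested.

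Jak3 fell by 0.91 ± 0.16 (SE) on the log2 scale in IL-4 pinnae, to 53.2% of the PBS level (95% interval of the log2 change -1.24 to -0.58, limma adjusted p = 0.00145). In IL-13 pinnae it fell by 1.24 ± 0.16, to 42.2% (interval -1.57 to -0.91, limma adjusted p = 0.00085). In IL-31 pinnae it fell by 0.78 ± 0.16, to 58.4% (interval -1.11 to -0.45, limma adjusted p = 0.0193). Called lower in all 3 comparisons, as Jak3 was, were 117 genes, 0.711% of those tested, and 0 genes with PBS libraries 1, 2 and 3 left out, since none was then called in IL-31. The IL-13 libraries also lay below all IL-31 libraries, a difference of -0.47 ± 0.16 that did not pass adjustment (unadjusted p = 0.00773, limma adjusted p = 0.31). IL-4 and IL-13 libraries overlapped, with a difference of 0.33 (interval 0.00 to 0.66, limma adjusted p = 0.997).

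The direction for Jak3 was the same under all 21 alternative settings in each comparison with PBS. In IL-31 pinnae the call was lost without IL-31 library 3 (limma adjusted p = 0.0656) or 5 (0.0506), and without PBS library 1 (0.0501), 2 (0.0646) or 3 (0.054), while the log2 change stayed between -0.82 and -0.75 in those fits. With PBS libraries 1, 2 and 3 left out together the log2 change was -0.93 in IL-4 (limma adjusted p = 0.0236), -1.27 in IL-13 (0.0221) and -0.80 in IL-31 (0.604). Jak3 shares 404 exon bases, 7.55% of its exon length, with Insl3 on the same strand. Insl3 was not among the deposited genes, and the rule for reads in shared bases is not given in the sources used here.

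Several marker lists also differed from PBS as groups, whereas single libraries within a group matched Jak3 in some cases and not in others. IL-13 library 2 had the lowest pan-leukocyte score of its group (-0.90) and the highest Jak3. PBS library 5 had the highest of both in its group, with a score of 1.32. Of 8 pan-leukocyte markers, 6 were called lower in IL-4, 7 in IL-13 and 0 in IL-31. Their summed level was 116 to 246 CPM in IL-4, 113 to 305 in IL-13, 177 to 308 in IL-31 and 196 to 502 in PBS, and no marker was at the table's minimum. The summed level of the 18 muscle markers was 605 to 4840 CPM in IL-4, 1400 to 5320 in IL-13, 2750 to 12100 in IL-31 and 8890 to 26100 in PBS. Endothelial markers were called lower for 3 of 12 in IL-4, 6 of 12 in IL-13 and 0 of 12 in IL-31, with summed levels of 111 to 230 CPM in IL-4, 117 to 208 in IL-13, 191 to 264 in IL-31 and 197 to 336 in PBS. Keratinocyte markers were called higher for 6 of 13 in IL-4, 6 in IL-13 and 5 in IL-31, with summed levels of 45200 to 55900 CPM, 46700 to 83800 CPM and 53100 to 63500 CPM, against 25700 to 52300 CPM in PBS.

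The T, NK and innate lymphoid score, from 14 markers of cells known for Jak3, was -0.38 to 0.20 in IL-4, -0.36 to 0.08 in IL-13, 0.02 to 0.59 in IL-31 and -0.49 to 0.36 in PBS, so these groups overlapped. Cd5, a T cell surface protein named after its values were seen, was the 1 gene called in that list, and it was higher in IL-4 and IL-13. With the muscle score as a covariate the log2 change of Jak3 was -0.78 in IL-4 (limma adjusted p = 0.182), -1.12 in IL-13 (0.157) and -0.74 in IL-31 (0.0522). With the keratinocyte score as a covariate it was -0.73 (0.03), -1.03 (0.0694) and -0.58 (0.526). With the neutrophil score as a covariate Jak3 stayed called in all 3, at -0.94 (limma adjusted p = 0.00119), -1.26 (8.95e-05) and -0.79 (0.0201). Over all tested genes the muscle score fit called 3, 1 and 0, the keratinocyte score fit 1423, 4 and 0, and the neutrophil score fit 3080, 3926 and 1419. The part of cell composition in the Jak3 difference was not tested.

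**Figure D2:**
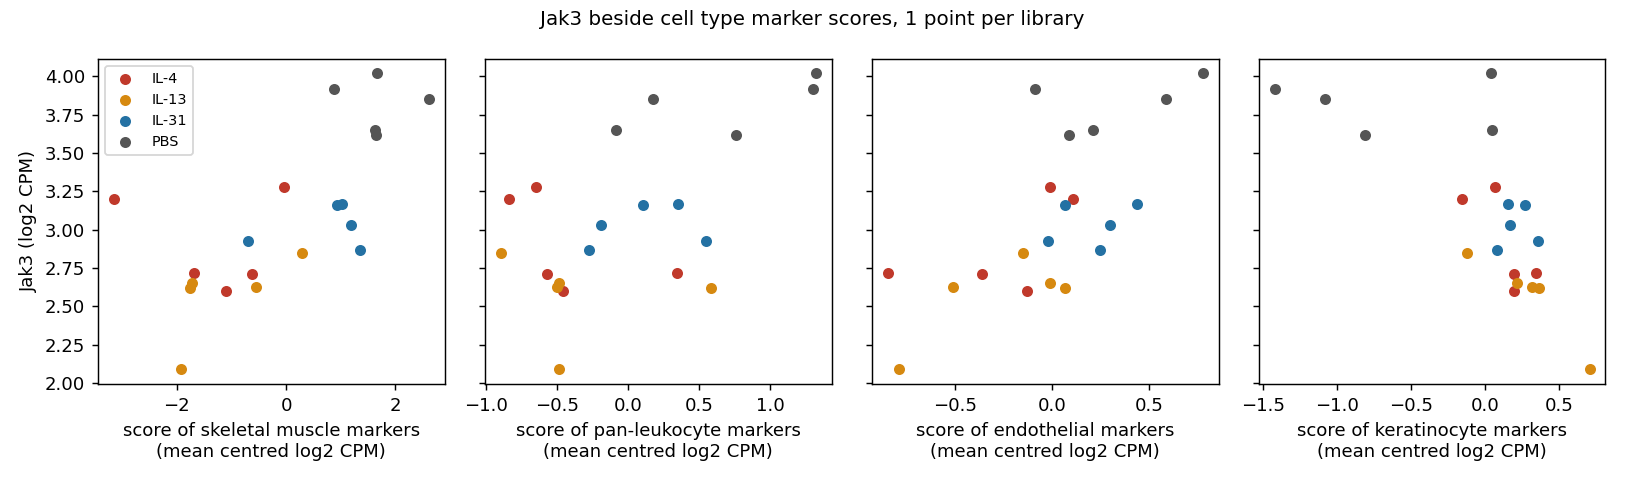
Jak3 (vertical axis, log2 CPM) against the scores of skeletal muscle, pan-leukocyte, endothelial and keratinocyte markers (horizontal axes, mean of log2 CPM centred per gene), with 1 point per library. The 5 PBS points lie at 3.62 to 4.02 log2 CPM and all 15 cytokine points lie below them. In the keratinocyte panel the PBS points also lie left of all IL-31 points, with scores of 0.08 to 0.36 in IL-31 and -1.42 to 0.05 in PBS.

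Promoter windows from RefSeq (GRCm38.p6, 250 bases before to 50 bases after the annotated start) were found for 8 of 8 genes. STAT dimers are known to bind palindromes with short spacers, so both strands of each window were searched for TTCNNNGAA and for TTCNNNNGAA, the spacing that STAT6 is known to favour. Neither was present in any of the 8 windows, against 8.3% and 6.95% of all 32851 windows. The core promoter motif TATAAA was present in 1 of the 8, Il13ra2, against 13.6% of all windows. These are matches of letters in a short window and show nothing about binding. The stretches upstream of Jak3, the transcript that was lower in every cytokine group, and of Il13ra2, the rarest of the 8, are shown 5′ to 3′ for contrast, with TATAAA in capitals. The Jak3 stretch is chr8:71676133-71676295 (plus strand) and the Il13ra2 stretch is chrX:147429193-147429442 (minus strand).
Jak3: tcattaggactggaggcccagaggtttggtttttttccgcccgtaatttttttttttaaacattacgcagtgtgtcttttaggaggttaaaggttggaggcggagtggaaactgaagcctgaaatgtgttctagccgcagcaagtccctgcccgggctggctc
Il13ra2: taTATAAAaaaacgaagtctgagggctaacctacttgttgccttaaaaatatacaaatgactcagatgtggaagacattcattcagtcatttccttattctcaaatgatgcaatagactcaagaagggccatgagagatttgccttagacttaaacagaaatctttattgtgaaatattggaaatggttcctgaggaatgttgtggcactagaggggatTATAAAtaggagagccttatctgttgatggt
The Il13ra2 matches began 248 and 31 bases before the RefSeq start. The Jak3 stretch, which ends before the GENCODE start of the gene, held no match.

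Il2rg (chrX:101264378-101268255, minus strand) encodes the common gamma chain, the receptor partner of JAK3. It had 1.98, 2.60, 2.26, 2.90 and 2.43 log2 CPM in IL-4 libraries, 2.85, 1.35, 2.35, 2.64 and 2.22 in IL-13 libraries, 2.71, 2.22, 2.73, 3.05 and 2.35 in IL-31 libraries and 2.78, 2.96, 2.49, 3.11 and 3.58 in PBS libraries. Every cytokine group overlapped PBS, and 3 IL-4, 3 IL-13 and 2 IL-31 libraries lay below the lowest PBS library. Relative to PBS, Il2rg differed on the log2 scale by -0.55 in IL-4 (95% interval -1.09 to -0.01, limma adjusted p = 0.149), -0.70 in IL-13 (-1.24 to -0.16, 0.0615) and -0.37 in IL-31 (-0.91 to 0.17, 0.383). In IL-13 it passed the threshold without IL-13 library 1 (-0.84, limma adjusted p = 0.0353) or PBS library 3 (-0.83, 0.0429), and was -0.47 without IL-13 library 2, which held the lowest value. Without PBS libraries 1, 2 and 3 the differences were -0.92, -1.07 and -0.73, none past the threshold. With the keratinocyte score as a covariate they were -1.14, -1.42 and -1.01 (limma adjusted p = 0.017, 0.0694 and 0.526), past the threshold in IL-4. Il2rg shares 728 exon bases, 30.5% of its exon length, with Gm20489 on the same strand, which was not among the deposited genes.

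Il4ra (chr7:125552120-125579474, plus strand) encodes the alpha chain common to both receptor types. It had 4.59, 4.34, 4.75, 4.76 and 4.33 log2 CPM in IL-4 libraries, 5.29, 4.19, 5.71, 4.57 and 4.53 in IL-13 libraries, 5.07, 4.65, 5.07, 5.58 and 4.44 in IL-31 libraries and 5.25, 4.13, 4.79, 4.47 and 6.86 in PBS libraries. All groups overlapped, and PBS library 5 was the highest of the 20, which gave PBS the widest spread (SD 1.07, against 0.21 in IL-4). The log2 difference from PBS was -0.55 in IL-4 (95% interval -1.34 to 0.25), -0.24 in IL-13 (-1.04 to 0.55) and -0.14 in IL-31 (-0.93 to 0.65), with limma adjusted p of 0.349, 0.689 and 0.842. Without PBS library 5 these differences were -0.11, 0.20 and 0.30, and without PBS libraries 1, 2 and 3 they were -1.11, -0.81 and -0.71, none of them past the threshold. With the score of 12 neutrophil markers as a covariate they were -0.08, 0.08 and 0.12 (limma adjusted p = 0.891, 0.871 and 0.822). The summed level of those markers was 15.3 to 364 CPM in IL-4, 12.2 to 737 in IL-13, 13.8 to 568 in IL-31 and 21.4 to 1410 in PBS. With the muscle score as a covariate the Il4ra differences were -1.21, -0.87 and -0.34 (limma adjusted p = 0.387, 0.556 and 0.64). With the keratinocyte score they were -1.28, -1.13 and -0.94 (limma adjusted p = 0.0606, 0.188 and 0.568). The part of neutrophil, muscle or keratinocyte content in the Il4ra values was not tested. Il4ra had the largest pooled within-group SD of the 8 (0.66). An antisense gene, Gm44876, covers 9.51% of its exon bases and was not among the deposited genes.

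Il13ra1 (chrX:36112110-36171259, plus strand) encodes the chain that turns the alpha chain into a receptor for IL-13. It had 6.54, 6.79, 6.77, 6.91 and 7.15 log2 CPM in IL-4 libraries, 7.13, 6.42, 7.43, 6.94 and 6.97 in IL-13 libraries, 6.95, 6.82, 7.06, 7.15 and 6.84 in IL-31 libraries and 6.12, 6.25, 5.68, 6.75 and 7.59 in PBS libraries. PBS libraries 1, 2 and 3, those with low keratinocyte scores, lay below all 15 cytokine libraries, while PBS library 5 was the highest of all 20. Against PBS, Il13ra1 differed on the log2 scale by 0.35 in IL-4 (95% interval -0.16 to 0.87), 0.50 in IL-13 (-0.02 to 1.01) and 0.48 in IL-31 (-0.03 to 1.00), with limma adjusted p of 0.354, 0.163 and 0.239. Without PBS library 5 it was 0.63, 0.78 and 0.76 and passed the threshold in all 3 (limma adjusted p = 0.0224, 0.00556 and 0.0103). Without PBS libraries 1, 2 and 3 the sign turned, to -0.34, -0.19 and -0.21, and with the keratinocyte score as a covariate it was -0.43, -0.45 and -0.37. The part of keratinocyte content in the Il13ra1 values was not tested.

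Il13ra2 (chrX:147383476-147429192, minus strand), the decoy chain, was the rarest of the 8, at about 5 to 36 reads per library. It had -0.26, 0.04, 0.75, -0.32 and 0.38 log2 CPM in IL-4 libraries, 0.45, -0.10, 0.62, 0.40 and 0.77 in IL-13 libraries, -0.10, -0.10, -0.91, 0.74 and 0.09 in IL-31 libraries and 1.16, 0.75, 1.11, 0.05 and -0.11 in PBS libraries. All groups overlapped. For Il13ra2 the log2 difference from PBS was -0.48 in IL-4 (95% interval -1.16 to 0.21), -0.16 in IL-13 (-0.85 to 0.52) and -0.65 in IL-31 (-1.33 to 0.04), with limma adjusted p of 0.344, 0.763 and 0.236. These intervals leave room for changes larger than 1 log2 unit in IL-4 and IL-31. Without PBS libraries 1, 2 and 3 the differences were 0.15, 0.46 and -0.02.

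Jak1 (chr4:101152367-101265282, minus strand) encodes the kinase of the alpha chain and is used by many cytokine receptors. It had 7.05, 7.40, 7.43, 7.47 and 7.45 log2 CPM in IL-4 libraries, 7.63, 7.11, 7.65, 7.50 and 7.45 in IL-13 libraries, 7.56, 7.39, 7.52, 7.52 and 7.55 in IL-31 libraries and 7.01, 7.04, 6.80, 7.41 and 7.68 in PBS libraries. As for Il13ra1, PBS libraries 1, 2 and 3 lay below all 15 cytokine libraries and PBS library 5 above them all. The log2 difference from PBS was 0.17 in IL-4 (95% interval -0.11 to 0.46), 0.28 in IL-13 (0.00 to 0.56) and 0.32 in IL-31 (0.04 to 0.61), with limma adjusted p of 0.414, 0.152 and 0.156. Without PBS library 5 it was 0.30, 0.40 and 0.44, and passed the threshold in IL-13 (limma adjusted p = 0.0175) and IL-31 (0.0164). Without PBS libraries 1, 2 and 3 it was -0.19, -0.08 and -0.04.

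Tyk2 (chr9:21104068-21131243, minus strand) encodes the kinase of IL-13 receptor alpha 1. It had 5.93, 5.80, 5.77, 5.86 and 5.76 log2 CPM in IL-4 libraries, 5.73, 6.11, 5.65, 5.84 and 5.74 in IL-13 libraries, 5.61, 5.85, 5.64, 5.56 and 5.56 in IL-31 libraries and 6.11, 5.99, 6.21, 5.80 and 5.59 in PBS libraries. PBS libraries 1, 2 and 3 were on the high side, opposite to their place for Jak1, and PBS library 5 was low. Set against PBS, Tyk2 differed on the log2 scale by -0.12 in IL-4 (95% interval -0.34 to 0.10), -0.13 in IL-13 (-0.35 to 0.10) and -0.30 in IL-31 (-0.52 to -0.07), with limma adjusted p of 0.485, 0.426 and 0.0998. In IL-31 it was -0.38 without PBS library 5, past the threshold (limma adjusted p = 0.0116), and -0.05 without PBS libraries 1, 2 and 3. Without those 3 libraries the sign turned in IL-4 (0.13) and IL-13 (0.12). The antisense gene 1700084C06Rik covers 8.07% of the Tyk2 exon bases and was not among the deposited genes.

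Stat6 (chr10:127642986-127660957, plus strand), the transcription factor of the pathway, was the steadiest of the 8, with a pooled within-group SD of 0.13. It had 6.71, 6.83, 6.94, 6.86 and 6.69 log2 CPM in IL-4 libraries, 6.89, 6.74, 7.00, 6.76 and 6.83 in IL-13 libraries, 6.71, 6.72, 7.00, 6.68 and 6.68 in IL-31 libraries and 6.47, 6.54, 6.75, 6.79 and 6.78 in PBS libraries. PBS libraries 1 and 2 were the lowest of the 20, and PBS libraries 3, 4 and 5 lay within the range of every cytokine group. Differences of Stat6 from PBS on the log2 scale were 0.14 in IL-4 (95% interval -0.03 to 0.32), 0.18 in IL-13 (0.00 to 0.35) and 0.10 in IL-31 (-0.08 to 0.27), with limma adjusted p of 0.256, 0.14 and 0.484. Without PBS libraries 1, 2 and 3 they were 0.02, 0.06 and -0.02. Each interval lay well inside 1 log2 unit on either side of 0.

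**Figure D3:**
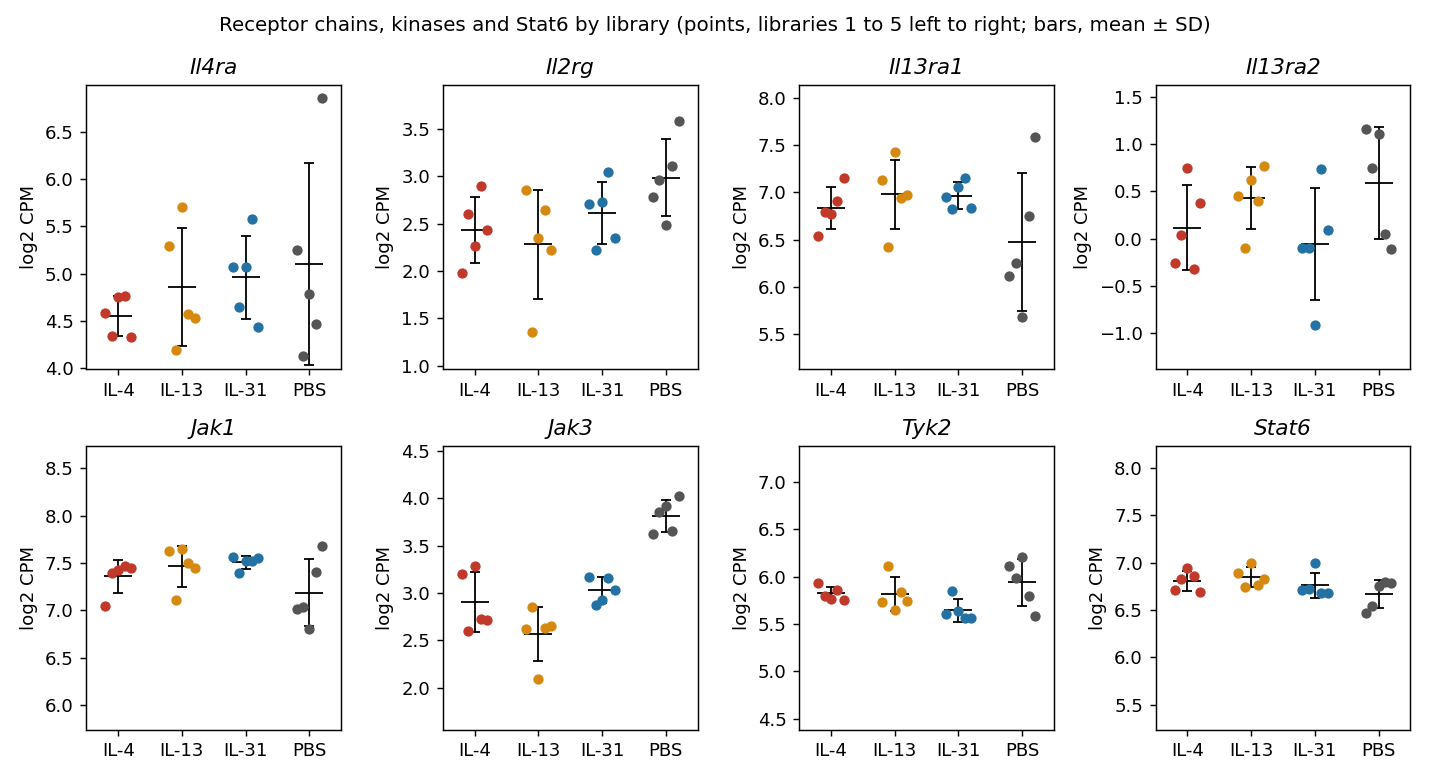
Level of each transcript in log2 CPM in the 20 libraries, with points for libraries 1 to 5 from left to right and bars for the mean ± SD of each group (n = 5). Each panel spans the same height in log2 units. Jak3 is the gene in which the PBS points, 3.62 to 4.02, all lie above those of the 3 cytokine groups.

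**Figure D4:**
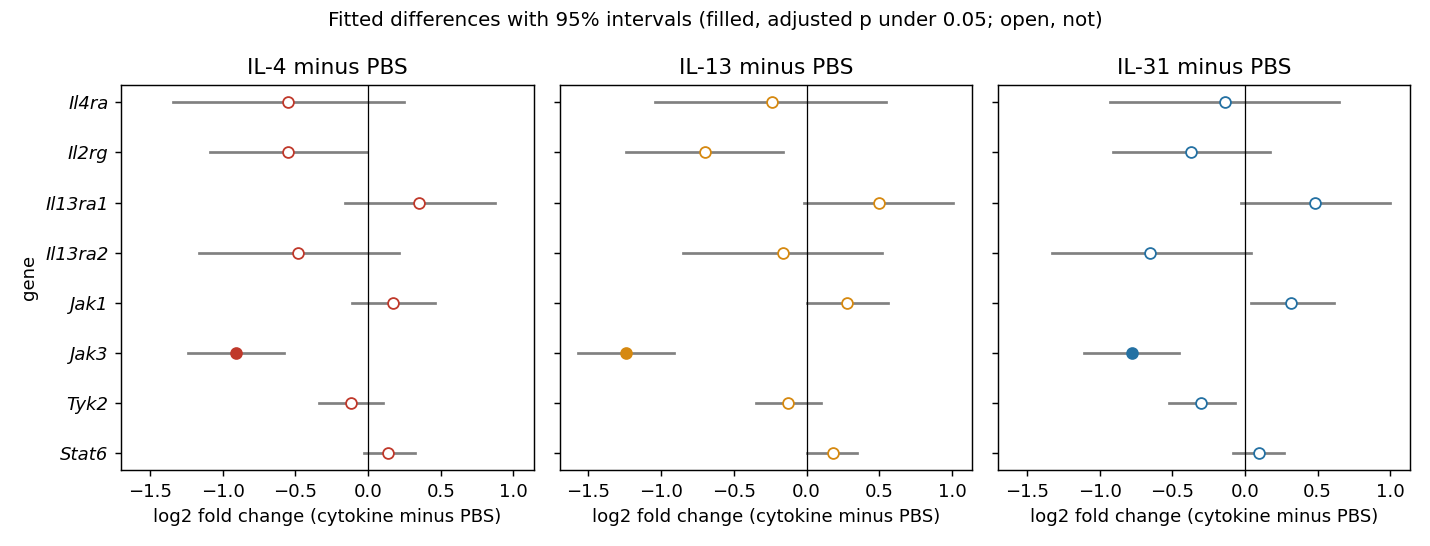
Fitted log2 fold change of each transcript, cytokine minus PBS, with its 95% interval. Filled points passed a limma adjusted p of 0.05. Jak3 is filled in all 3 panels at -0.91, -1.24 and -0.78, and the other 7 genes are open.

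Between cytokines, limma called 0 of 16461 genes (0%) in each comparison. At an unadjusted p under 0.05 there were 664 genes in IL-4 against IL-13, 1743 in IL-4 against IL-31 and 1200 in IL-13 against IL-31. Among the 8 members Jak3 was the one below that level, in IL-4 against IL-13 (unadjusted p = 0.0473 before adjustment to 0.997 by limma) and in IL-13 against IL-31. Jak3 was also the one member whose groups did not overlap, in IL-13 against IL-31, as did not 0.668% of all tested genes in the same direction. The 95% intervals for Stat6 between cytokines ran from -0.21 to 0.14 (IL-4 minus IL-13), -0.13 to 0.22 (IL-4 minus IL-31) and -0.09 to 0.26 (IL-13 minus IL-31).

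Pairs of members were described as ratios of levels per exon length, with no test because the genes were chosen with their values known. Il13ra1 over Il2rg sets a type II chain against a type I chain. JAK1 serves the alpha chain of both types, so Jak1 over Jak3 is not a balance of types. Jak3 alone already separated the cytokine libraries from PBS. Il13ra1 exceeded Il2rg by 3.76 ± 0.29 log2 units in IL-4, 4.06 ± 0.39 in IL-13, 3.71 ± 0.20 in IL-31 and 2.86 ± 0.33 in PBS (mean ± SD, n = 5). The lowest cytokine library, at 3.38, was next to the highest PBS library, at 3.37. Jak1 exceeded Jak3 by 4.03 ± 0.43 in IL-4, 4.46 ± 0.46 in IL-13, 4.04 ± 0.10 in IL-31 and 2.94 ± 0.36 in PBS, and all cytokine libraries (3.42 or more) lay above all PBS libraries (3.34 or less). In PBS libraries 4 and 5 the ratio was 3.00 and 3.37 for Il13ra1 over Il2rg and 3.34 and 3.22 for Jak1 over Jak3, higher than in PBS libraries 1, 2 and 3 for both. Il4ra exceeded Il2rg by 0.79 ± 0.40 in IL-4, 1.25 ± 0.54 in IL-13, 1.02 ± 0.16 in IL-31 and 0.79 ± 0.86 in PBS, with overlap between all groups and PBS libraries 4 and 5 at 0.03 and 1.95. Il13ra1 exceeded its decoy relative Il13ra2 by 6.01 ± 0.44 in IL-4, 5.85 ± 0.23 in IL-13, 6.32 ± 0.58 in IL-31 and 5.19 ± 1.29 in PBS. The low PBS mean rested on libraries 1, 2 and 3, at 4.26, 4.80 and 3.87. PBS library 5, at 7.00, was above every cytokine mean and PBS library 4 lay between the IL-13 and IL-4 means, so the direction did not hold in those 2 libraries.

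Within groups, with each group centred on its own mean, Il13ra1 and Jak1 varied together over the 20 libraries (Pearson r = 0.93), and both varied opposite to Tyk2 (r = -0.91 with Il13ra1 and -0.92 with Jak1). Il2rg followed Jak1 (r = 0.80) and Il13ra1 (0.73), and Il4ra followed Il13ra1 (0.70). Jak3 varied with none of the others beyond r = -0.25 (with Jak1), and its r with its receptor partner Il2rg was -0.23. These values share the libraries and their tissue makeup, PBS libraries 1, 2, 3 and 5 lie at the extremes of several genes, and they are descriptions with no p.

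The genes with the most similar profile over all 20 libraries differed between members. For Jak3 they were Nnmt (nicotinamide N-methyltransferase, r = 0.91, and 0.77 with groups centred), Ggt5 (a gamma-glutamyltransferase, 0.91 and 0.72) and Cers2 (a ceramide synthase, 0.90 and 0.84). These 3 genes were picked for likeness to Jak3 in the same libraries, so lower levels in the cytokine groups largely follow from that choice. Nnmt and Ggt5 were called lower in all 3 cytokine groups, by 1.20, 1.28 and 0.85 log2 units for Nnmt (limma adjusted p = 0.00388, 0.00264 and 0.0479) and by 0.93, 0.96 and 0.73 for Ggt5 (0.00354, 0.00276 and 0.0301). Cers2 fell by 0.43, 0.53 and 0.35 (limma adjusted p = 0.0239, 0.0078 and 0.104) and was not called in IL-31. The changes without PBS libraries 1, 2 and 3 were -1.14, -1.22 and -0.78 for Nnmt (limma adjusted p = 0.0542, 0.0612 and 0.653) and -0.89, -0.92 and -0.69 for Ggt5 (0.0419, 0.0558 and 0.607). In that fit Cers2 was -0.42, -0.51 and -0.33 (limma adjusted p = 0.124, 0.0865 and 0.673). For Il2rg the most similar genes were Cd48 (a leukocyte surface protein, r = 0.79), Psmb9 (an immunoproteasome subunit, 0.78) and P2ry6 (a nucleotide receptor, 0.76). For Il4ra, Gmppb (a subunit of the enzyme that makes GDP-mannose) had an r of 0.92, and 0.94 with groups centred. Il13ra1 was followed by Efl1, Ptgfrn and Galnt1 (0.96 each), Jak1 by Car13, Rab10 and Zdhhc5 (0.98, 0.97 and 0.96), Tyk2 by Cars2, Cep131 and Lrrc45 (0.94, 0.92 and 0.92), and Stat6 by Itch, Dhrs1 and Rpe (0.88, 0.87 and 0.87). The closest profiles to Il13ra2 were less alike, at 0.79 for Hyal3, 0.75 for Hmgxb4 and 0.70 for Nemp2.

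Of 29 partners and regulators of the receptors and of STAT6, all tested, 4 were called lower in IL-4, 4 in IL-13 and 2 in IL-31, and 0 were called higher, with median log2 changes of -0.05, -0.04 and -0.11. Over all tested genes 9.63%, 9.8% and 1.2% were called lower. Fes, a tyrosine kinase, averaged 4.18 ± 0.15 log2 CPM in IL-4, 4.15 ± 0.24 in IL-13, 4.24 ± 0.24 in IL-31 and 4.87 ± 0.21 in PBS (SD, n = 5 each), and fell in all 3 by 0.68, 0.72 and 0.63 (limma adjusted p = 0.00293, 0.00234 and 0.0198) with no overlap between groups. With PBS libraries 1, 2 and 3 left out it was -0.70, -0.73 and -0.65, and passed the threshold in IL-4 and IL-13 (limma adjusted p = 0.0334 and 0.0461) but not in IL-31 (0.604). Pik3cd, the delta catalytic subunit of phosphoinositide 3-kinase, fell by 0.67 in IL-4 and 0.55 in IL-13 (limma adjusted p = 0.00485 and 0.0134). Parp14, a coactivator of STAT6, fell by 1.01 and 1.03 (0.0412 and 0.0348), and Inpp5d, the lipid phosphatase SHIP1, fell by 0.84 and 0.82 (0.046 and 0.0475). Socs5, a suppressor of cytokine signalling, fell by 0.40 in IL-31 (limma adjusted p = 0.0462). In the fit without PBS libraries 1, 2 and 3 the calls for Pik3cd, Parp14, Inpp5d and Socs5 were lost in each of these groups, at limma adjusted p of 0.103 to 0.645, with log2 changes in the same direction. Pik3cd and Inpp5d are best known from leukocytes, whose markers were lower in the same 2 groups as given above for Jak3, and their part in these differences was not tested.

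Among other cytokine receptor chains, 10 of 12 were tested. In IL-4 and in IL-13, 1 of the 10 was called lower, near the 9.63% and 9.8% of all tested genes called lower. This was Il1rl1, the IL-33 receptor chain, which fell by 1.65 in IL-4 and 1.32 in IL-13 (limma adjusted p = 0.00907 and 0.027). The other 9 were not called in any cytokine group. Il1rl1 had 1.60 ± 0.51 log2 CPM in IL-4, 1.94 ± 0.39 in IL-13 and 3.26 ± 1.14 in PBS, and both cytokine groups overlapped PBS. Its change was -1.93 in IL-4 (limma adjusted p = 0.0344) and -1.59 in IL-13 (0.0897) without PBS libraries 1, 2 and 3.

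Among known STAT6 target genes, 19 of 24 were tested, and 2 were called higher and 1 lower in IL-4, 4 higher and 2 lower in IL-13, and 2 higher and 0 lower in IL-31. Fewer than 1 in 10 tested genes were called in either single direction in IL-4 or IL-13 (8.22% higher in IL-4 and 9.94% in IL-13, beside 5.18% in IL-31, with the shares called lower given above). Retnla, a hallmark transcript of macrophages exposed to IL-4, averaged 3.02 ± 1.35 log2 CPM in IL-4 and -0.80 ± 1.32 in PBS, a rise of 3.83 ± 0.86 (SE, limma adjusted p = 0.00583). Its PBS mean lay below the filter level of 0 log2 CPM, so the size of the rise rests on few reads in PBS. Retnla was not called in IL-31, and its result in IL-13 is not reported here. Clca1, a secreted protein of goblet cells, rose by 1.33 in IL-13 and 0.98 in IL-31 (limma adjusted p = 0.00342 and 0.0399). Cdh1, E-cadherin, rose by 0.69, 0.75 and 0.69 in the IL-4, IL-13 and IL-31 groups (0.00586, 0.00331 and 0.0221), as an epithelial gene beside the keratinocyte markers given above. Gata3, a transcription factor of keratinocytes and type 2 lymphocytes, rose by 0.36 in IL-13 (limma adjusted p = 0.0226). Tgm2, a transglutaminase, fell by 1.75 in IL-4 and 1.46 in IL-13 (0.00534 and 0.0129), and Clec10a, a macrophage lectin, fell by 0.51 in IL-13 (0.0184). Also called higher in IL-13 was 1 target not reported here, since at most 5 per list and comparison were named by smallest p. Of 12 macrophage markers, 7 were called lower in IL-4, 6 in IL-13 and 0 in IL-31, with summed levels of 304 to 473 CPM in IL-4, 315 to 697 in IL-13, 456 to 726 in IL-31 and 625 to 1300 in PBS, and none was at the table's minimum. Their part in the Clec10a, Retnla and Tgm2 values was not tested. Retnla (4.02 in IL-4, limma adjusted p = 0.0426) and Gata3 (0.57 in IL-13, 0.0107) also passed the threshold without PBS libraries 1, 2 and 3. In that fit Cdh1 was 0.27, 0.33 and 0.27 in the IL-4, IL-13 and IL-31 groups (limma adjusted p = 0.265, 0.22 and 0.686), and the calls for Clca1, Tgm2 and Clec10a were lost, at limma adjusted p of 0.0641 to 0.673.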

How the data were processed

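Per the labels' protocols, total RNA came from a Qiagen RNeasy Plus Universal mini kit and was turned into libraries by NEBNext Ultra II RNA reagents. The authors deposited log2 CPM values for 16669 genes; the submitters' processing notes name GRCm38 and edgeR without a version. No aligner, counter, annotation or strand setting is given in the sources used here. Every library's lowest value was -2.684, an offset of 0.1556 CPM, so fold changes of low genes are understated. Depth was estimated from the spacing of low values, of which 79.8 to 86.7% were whole within 0.02 reads; reads were therefore not recovered and no count test was run. Precision follows from the read numbers given and from counting error plus the spread between libraries.

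Genes with log2 CPM of at least 0 in at least 5 libraries were kept (16461, with 208 removed). limma 3.58.1 in R 4.3.3 fitted 4 groups to 20 libraries (eBayes with trend), with two-sided Benjamini-Hochberg adjustment over all tested genes and calls at an adjusted p under 0.05. The fit was tested on simulated data. Symbols, coordinates and exon lengths came from GENCODE M21, which matched 16644 identifiers. Tables and figures used python 3.11.15, numpy 2.4.6, pandas 2.3.3 and matplotlib 3.10.9.

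All 8 members were named, with the 3 protein-coding genes of highest Pearson r with each (some are not reported here), and called genes of the pathway lists, at most 5 per list and comparison by smallest p. Members and lists were chosen with earlier results of these data known. Marker lists covered pan-leukocyte, neutrophil, T, NK and innate lymphoid, macrophage, dendritic and Langerhans, mast, B cell, endothelial, fibroblast, keratinocyte, muscle, cartilage and adipocyte genes. Beside those in the report, calls were 1 of 8 fibroblast markers lower in IL-4 and in IL-13; 2 of 5 adipocyte markers lower in IL-13; and 0 of 12 neutrophil, 8 dendritic, 6 mast cell and 6 cartilage markers in any group. None of the 4 B cell markers was among the deposited genes. Alternatives were log2(CPM + 1), no filter and a stricter one (log2 CPM of at least 1 in 10 libraries), quantile normalization, sample weights, fits of only 2 groups, a replicate block, marker scores as covariates, PBS libraries 1, 2 and 3 left out, and each library left out.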

Additional observations from a re-analysis of the deposited data

Results flagged for a closer look

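Of 32 sets of 5 libraries (8 genes in 4 groups), 4 held a library far from the others, with a gap to its nearest neighbour above 0.71 of the range of the group. Chance gives about 1 in 20 such sets where values are normally spread. These sets are not independent of each other, as Jak1 and Tyk2 had an r of -0.92 with groups centred, so the 2 rates are not compared. Jak1 was 7.05 log2 CPM in IL-4 library 1, below the other IL-4 libraries at 7.40 to 7.47. Jak1 was 7.39 in IL-31 library 2, where the others had 7.52 to 7.56. Tyk2 was 5.85 in the same IL-31 library 2, above the others at 5.56 to 5.64. Stat6 was 7.00 in IL-31 library 3, above the others at 6.68 to 6.72.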

How the results depend on the processing

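Jak3 kept its direction in every alternative and comparison with PBS; it was called in 20 of 21 alternatives for IL-4, 19 of 21 for IL-13 and 12 of 21 for IL-31. The number of the 8 members called, 1 in each comparison with PBS, became 0 in all 3 with the muscle score as a covariate, 2, 0 and 0 with the keratinocyte score, and 0 in IL-31 with only 2 groups fitted or PBS libraries 1, 2 and 3 left out. Sample weights gave 3 in IL-13 (Il13ra1, Jak1, Jak3) and 3 in IL-31 (Jak1, Jak3, Tyk2). Leaving out 1 library gave 1 to 2 in IL-4, 1 to 3 in IL-13 and 0 to 4 in IL-31, with the highest counts without PBS library 5. Counts over all genes (2938 in IL-4, 3250 in IL-13, 1050 in IL-31) fell to 1269, 1134 and 0 with 2 groups fitted, 1200, 385 and 0 without PBS libraries 1, 2 and 3, 3, 1 and 0 with the muscle score, and 1423, 4 and 0 with the keratinocyte score; sample weights gave 1667 in IL-31. Leaving out 1 library gave 1885 to 3553 in IL-4, 1995 to 4703 in IL-13 and 0 to 3029 in IL-31. Between cytokines the count of 0 became 692 (IL-4 against IL-31) and 535 (IL-13 against IL-31) with sample weights, 283 and 147 with the neutrophil score as a covariate, and 0 to 304 and 0 to 297 on leaving out 1 library (highest without IL-31 library 3); fitting 2 groups gave 3 in IL-4 against IL-31. The causes were not tested. Il13ra2 has no value under the stricter filter. The correlation of libraries with the same replicate number ran from -0.236 to 0.486, in no comparison over 0.1 for every pair, and 3 of 20 correlated best with their own number. With the replicate block, 2952, 3252 and 1247 genes were called in IL-4, IL-13 and IL-31, 2 in IL-4 against IL-31, and the call for Jak3 did not change. Depth limits Il13ra2 most, at 5 to 36 reads per library.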
